A study of Mus musculus with 141 samples.

Results

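Integrins are paired adhesion receptors of the cell surface, and 10 genes for their chains were followed here in single mouse bone marrow progenitors. The genes were listed by symbol, matched to their Ensembl identifiers, and are 10 of 46078 gene rows. They are the beta chain genes Itgb7, Itgb1, Itgb2 and Itgb3 and the alpha chain genes Itga4, Itgae, Itga6, Itga2, Itgal and Itgam. The study sorted 94 single basophil and mast cell progenitors (BMCP) and 47 single granulocyte and monocyte progenitors (GMP) from the marrow of 3 female C57BL/6 mice with no stated treatment. Both populations were live, lineage-negative, cKit-positive and Sca1-negative. BMCP were high for the integrin beta7 protein and for the Fc receptor CD16/32, while GMP were CD34-positive and high for CD16/32 and lay outside the gate that gave BMCP. No label says which mouse gave which cell, so each population was 1 sample, no test was possible, and each interval below covers counting error only.

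An integrin is 1 alpha chain bound to 1 beta chain, and neither chain normally reaches the surface without a partner. Which partners a cell makes therefore sets what it can bind: alpha4 with beta7 or beta1 binds the vessel wall ligands MAdCAM-1 and VCAM-1, alphaE with beta7 binds E-cadherin, and beta2 integrins bind ICAMs and complement fragments. In mice, alpha4beta7 is known for carrying mast cell progenitors into the intestine, and beta7 is a textbook surface marker of such progenitors. Surface pairs were not measured here: a pair below means that both transcripts were counted in the same cell.

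The RefSeq promoter table (build GRCm38.p6) held 5 of the 10 genes, namely Itgb7, Itga4, Itgb1, Itga2 and Itgam. The 250 bases before the start are shown for the chains of alpha4beta7 and for Itgb1, the other partner of alpha4, because their pairs were the most frequent in BMCP. Capitals mark matches to the letters TGNGGT, searched on both strands. They are looser than TGYGGT (Y is C or T), the core bound by RUNX, a family of blood cell transcription factors. Of the marked stretches only ACCACA in Itga4 reads as that core, while each ACCCCA reads TGGGGT on the other strand.
Itgb7, chr15:102231936-102232185, minus strand: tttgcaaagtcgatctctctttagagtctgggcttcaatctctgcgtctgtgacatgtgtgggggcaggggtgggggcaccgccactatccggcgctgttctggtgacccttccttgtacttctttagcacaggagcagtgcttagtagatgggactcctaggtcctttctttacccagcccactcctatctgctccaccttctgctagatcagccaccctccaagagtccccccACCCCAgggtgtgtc
Itga4, chr2:79255176-79255425, plus strand: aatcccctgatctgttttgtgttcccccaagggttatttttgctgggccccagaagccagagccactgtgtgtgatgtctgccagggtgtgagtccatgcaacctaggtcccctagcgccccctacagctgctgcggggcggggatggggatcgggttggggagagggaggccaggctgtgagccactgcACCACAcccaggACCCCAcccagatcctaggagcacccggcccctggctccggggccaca
Itgb1, chr8:128685404-128685653, plus strand: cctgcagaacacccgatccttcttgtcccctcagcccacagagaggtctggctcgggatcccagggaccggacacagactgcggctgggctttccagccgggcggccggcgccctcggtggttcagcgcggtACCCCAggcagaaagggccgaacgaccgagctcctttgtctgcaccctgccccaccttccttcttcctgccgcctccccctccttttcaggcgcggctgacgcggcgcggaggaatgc
Itga4 held 2 matches to TGNGGT, Itgb7 and Itgb1 held 1 each, and the windows of Itga2 and Itgam held 0. Of 32851 promoter windows of this length 40.1% held at least 1 match to these looser letters. The GATA letters AGATAA, found in 9.99% of all windows, were in none of the 5. The E-box letters CANNTG, found in 66.2% of all windows, had 1 match each in Itgb7, Itga4 and Itgam. The ETS letters AGGAAG, found in 29.5%, had 2 matches in Itgb1 and 1 each in Itgb7 and Itgam. A match is a description of these letters and not a bound site, and a missing one says only that the letters are not in this window.

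After filtering, 89 BMCP held 84242320 counts in nuclear-encoded genes, with a median of 893037 per cell (96129 to 2416630). The 41 GMP held 55520835 counts, with a range of 130191 to 3688848 per cell. Levels are counts per 1e6 nuclear-encoded counts (CPM), summed over each population. The labels held against mast cell and neutrophil progenitor markers. The 5 mast cell markers summed to 8117 CPM in BMCP against 2.67 CPM in GMP. The 5 neutrophil progenitor markers summed to 75.4 CPM in BMCP against 49998 CPM in GMP. The 4 basophil markers summed to 1431 CPM in BMCP against 175 CPM in GMP. Among markers of other cells, 4 natural killer and innate lymphoid markers summed to 3.12 CPM in BMCP against 0.198 CPM in GMP. Other sums were larger: erythroid markers had 299.7 CPM in BMCP against 21.1 CPM in GMP. Monocyte and dendritic cell markers had 293 CPM in BMCP against 486 CPM in GMP. For shares of cells, every cell was thinned to 200000 reads, which left 86 BMCP and 40 GMP. Detection meant 10 thinned reads or more, equal to 50 CPM. The mast cell protease gene Gzmb, at 6516 CPM in BMCP, never passed 3.70 CPM in a GMP, so a gene of BMCP stayed below the detection limit in every GMP. A summed level cannot tell fewer expressing cells from less RNA per cell, so values over single cells stand beside it.

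The most abundant integrin chain transcripts were not the same in BMCP and GMP. Beside the gated Itgb7, 5 of the other 9 genes were at least 2-fold higher in BMCP on the scale of log2(CPM + 1): Itga4, Itgb2, Itga2, Itgae and Itga6. Over all 14554 genes with at least 1 CPM in either population, 25.8% were at least 2-fold higher in BMCP. Itgal and Itgb3 were at least 2-fold lower in BMCP, as were 21% of those genes, and Itgb1 and Itgam lay between. The median log2 ratio over the 9 genes was 1.09, beside 0.04 over all 14554 genes. That median is the value of Itga6, and the 9 values ran from -5.06 (Itgb3) to 3.22 (Itga4). No shift of the genes as a set is therefore read from it. Per spike-in count the median of all genes moved to -0.79, Itgb2 and Itga6 were no longer 2-fold higher and Itgam was 2-fold lower, so only Itga4, Itga2 and Itgae kept the higher call there, and with a pseudocount of 10 only Itga4 and Itgb2 did. Of the 5 higher genes, Itga4 was detected in nearly every BMCP, while the other 4 were carried by a minority of cells. Alpha4 is a partner of the gated beta7, so the sort and the Itga4 difference cannot be told apart.

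**Figure D1:**
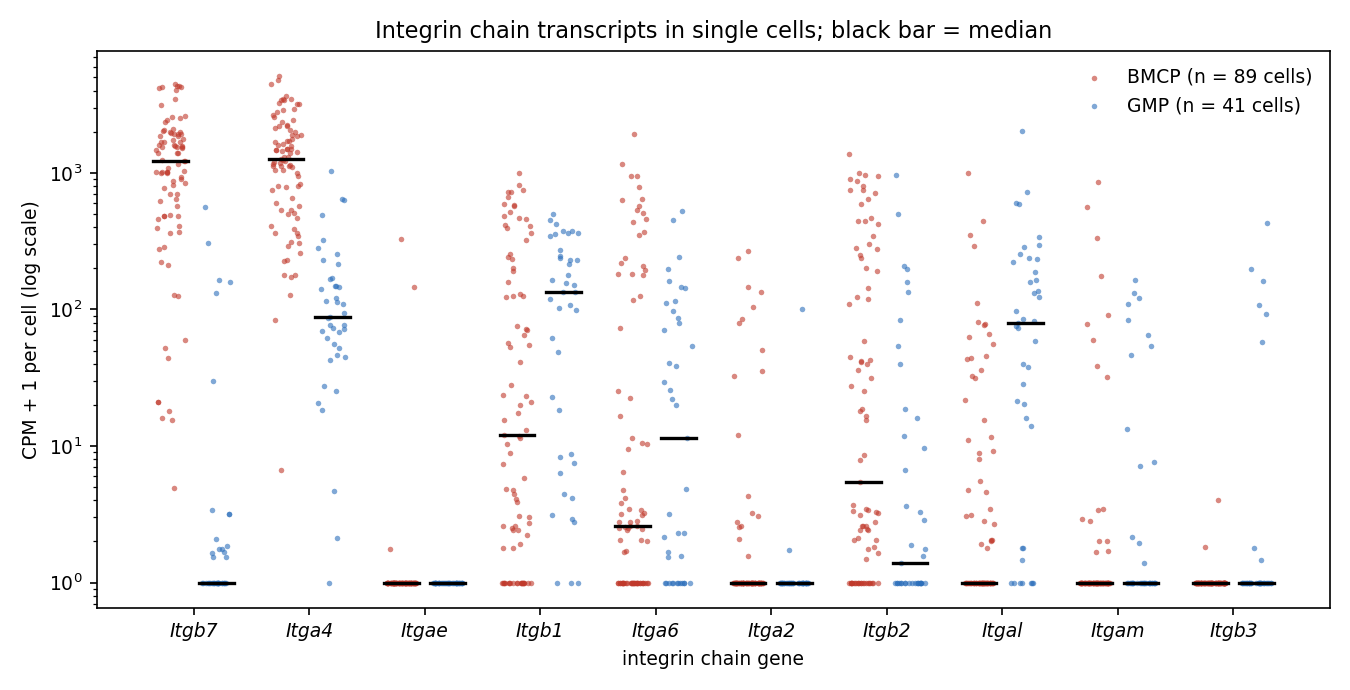
Level of each integrin chain gene as CPM + 1 on a log scale, with 1 point per cell for 89 BMCP (red, left) and 41 GMP (blue, right) and a black bar at the median. Itga4 is high in almost all BMCP with a median of 1257 CPM, whereas Itgb1, Itga6 and Itgb2 spread from 0 to near 1000 CPM or above among BMCP, and Itgal has its higher median in GMP at 78.1 CPM.

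Among the beta chains, Itgb7 (15:102215995-102231944, minus strand) encodes the sorted protein and serves only to check the gate. It stood at 1433 CPM (1425 to 1441) in BMCP against 48.5 CPM (46.7 to 50.4) in GMP. Over single BMCP it ran from 3.95 to 4501 CPM with a median of 1217, and over single GMP from 0 to 560 CPM with a median of 0. Every BMCP had at least 1 read, and 79 of 86 passed 10 thinned reads (91.9%, 83.9 to 96.7), against 5 of 40 GMP (12.5%, 4.19 to 26.8). GMP number 30 gave 52.6% of the Itgb7 reads of GMP, and the level in GMP was 24.1 CPM without it. The transcript followed the gate in most cells but not in all: 7 sorted BMCP, numbers 1, 5, 6, 48, 60, 69 and 73, lay between 3.95 and 43.2 CPM.

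These 7 cells still had the mast cell protease transcript. Their Gzmb ran from 283 CPM in BMCP number 60 to 6468 CPM in BMCP number 69, within the 30.4 to 22648 CPM of all BMCP. Their Mpo, the neutrophil granule gene, stayed between 0 and 7.12 CPM, against a lowest value of 508.6 CPM in GMP. All 7 also passed 10 reads for Itga4, from 127 CPM in number 73 to 2895 CPM in number 6. Number 5 held the highest Itga6 of any BMCP, at 1939 CPM.

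Itgb1 (8:128685654-128733200) encodes beta1, the most widely shared partner chain and a receptor subunit for fibronectin, collagen and laminin. Its summed level was 164 CPM (162 to 167) in BMCP against 167 CPM (164 to 171) in GMP, a log2 ratio of -0.02. The cells behind these sums differed: the median was 11.02 CPM in BMCP (0 to 995.9) against 132 CPM in GMP (0 to 500.1). It passed 10 reads in 29 of 86 BMCP (33.7%, 23.9 to 44.7) and in 26 of 40 GMP (65%, 48.3 to 79.4). Equal sums therefore came from fewer BMCP with higher values, and the ranges of the populations overlapped. Within BMCP the level was 98.2 CPM in cells numbered 1 to 47 and 204 CPM in cells 48 to 94, with 13 and 16 of 43 cells past the limit.

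Itgb2 (10:77530252-77565708) encodes beta2, the leukocyte chain of LFA-1 and Mac-1. Its level was 189 CPM (187 to 192) in BMCP against 64.7 CPM (62.6 to 66.8) in GMP, a log2 ratio of 1.54. Single BMCP ran from 0 to 1376 CPM with a median of 4.47, and single GMP from 0 to 963 CPM with a median of 0.384. GMP number 3 gave 49.3% of the GMP reads, and the GMP level was 33.9 CPM without it. Detection was 28 of 86 BMCP (32.6%, 22.8 to 43.5) and 7 of 40 GMP (17.5%, 7.34 to 32.8), and these intervals overlap.

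Itgb3 (11:104608000-104670476) encodes beta3, the platelet fibrinogen receptor chain, which also pairs with alphaV. Only 2 reads were counted over all BMCP, a level of 0.0237 CPM (0.00288 to 0.0858) in BMCP, against 33.2 CPM (31.7 to 34.8) in GMP. The GMP over BMCP ratio was 1400.5 with a counting interval of 387 to 11573. No BMCP of 86 passed even 2 thinned reads, which allows a share of up to 3.49% by a floor of 3 cells and up to 4.20% by the exact limit, while 6 of 40 GMP passed 10 reads (15%, 5.71 to 29.8). These were GMP numbers 26, 32, 34, 44, 45 and 46, at 56.5, 160, 195, 106, 426 and 91.1 CPM. Number 45 gave 59.97% of the reads, and GMP stood at 13.96 CPM without it.

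All 6 Itgb3 cells also passed 10 thinned reads for Itgb1, which 26 of all 40 GMP passed. Of these 6, number 32 was at 47.5 CPM of Itgb1 before thinning. Their Mpo ranged from 18254 CPM in number 32 to 68277 CPM in number 46, so each carried the neutrophil progenitor transcript. Gata2, a transcription factor gene shared by mast cells, basophils and early progenitors, varied among them from 1.08 CPM in number 46 to 465 CPM in number 45. Irf8, a monocyte and dendritic cell factor gene, ran from 0.542 CPM in number 46 to 451 CPM in number 32.

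Among the alpha chains, Itga4 (2:79255426-79333123) encodes alpha4, the partner of both beta7 and beta1. Its level was 1428 CPM (1420 to 1436) in BMCP against 152 CPM (149 to 156) in GMP, a log2 ratio of 3.22. Single BMCP ran from 5.64 to 5115 CPM with a median of 1257, and single GMP from 0 to 1025.5 CPM with a median of 86.3. The lower quartile of BMCP, 569 CPM, lay above the upper quartile of GMP, 167 CPM, although the extremes overlapped. It passed 10 reads in 85 of 86 BMCP (98.8%, 93.7 to 99.97) and in 30 of 40 GMP (75%, 58.8 to 87.3), so the populations differed far more in level than in the share of cells. The level was 1671 CPM in BMCP 1 to 47 and 1281 CPM in BMCP 48 to 94. GMP number 30 was the highest GMP, and without it the log2 ratio was 3.68. Because BMCP were gated on beta7, a partner of alpha4, the part of the sort in this difference was not tested. The library preparation does not keep strand, and 8.04% of the exon bases of Itga4 lie on the opposite strand from exons of Cerkl, which had 9.13 CPM in BMCP against 12.1 CPM in GMP.

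Itgae (11:73090583-73147446) encodes alphaE (CD103), the E-cadherin receptor chain that pairs with beta7. It was counted in 3 BMCP, and 2 of them passed 10 reads: number 10 at 328 CPM and number 19 at 146 CPM. BMCP number 10 gave 87.1% of the reads, and the BMCP level of 3.95 CPM was 0.516 CPM without it. No read was counted in any of 41 GMP, so the summed level was at least 73.2-fold higher in BMCP against a floor of 3 reads over all GMP. CD103 is best known on T cells, whose 4 markers summed to 0.0356 CPM in BMCP against 0 CPM in GMP. The 4 monocyte and dendritic cell markers summed to 293 CPM in BMCP against 486 CPM in GMP. The cell type behind the Itgae reads was not tested. Both Itgae cells had Itgb7, at 1589 and 647 CPM, and BMCP number 19 was also 1 of the 3 BMCP that passed 10 reads for Itgax, at 529 CPM.

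Itga6 (2:71745616-71858416) encodes alpha6, a laminin receptor chain of stem and progenitor cells. Its summed level was 133 CPM (130 to 135) in BMCP against 61.8 CPM (59.7 to 63.9) in GMP, a log2 ratio of 1.09, close to the 2-fold limit. The cell medians had the other order, 1.59 CPM in BMCP (0 to 1939) against 10.5 CPM in GMP (0 to 524). Detection also ran the other way, in 22 of 86 BMCP (25.6%, 16.8 to 36.1) and 14 of 40 GMP (35%, 20.6 to 51.7). Because the share of cells goes against the summed level, no order of the populations is read from Itga6.

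Itga2 (13:114833081-114932100, minus strand) encodes alpha2, a collagen receptor chain that pairs with beta1. Its level was 14.3 CPM (13.5 to 15.1) in BMCP against 2.70 CPM (2.29 to 3.17) in GMP, a log2 ratio of 2.05. It passed 10 reads in 8 of 86 BMCP (9.30%, 4.10 to 17.5), the highest being number 25 at 267 CPM, and in 1 of 40 GMP. That GMP, number 39, gave 99.3% of the GMP reads, and GMP stood at 0.0185 CPM without it.

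Itgal (7:127296260-127335138) encodes alphaL, the chain that makes LFA-1 with beta2 and binds ICAMs. It was the alpha chain with the opposite pattern to Itga4: 40.95 CPM (39.6 to 42.3) in BMCP against 174 CPM (170 to 177) in GMP, a log2 ratio of -2.06. Single BMCP ran from 0 to 990.6 CPM with a median of 0, and single GMP from 0 to 2037 CPM with a median of 78.1. It passed 10 reads in 10 of 86 BMCP (11.6%, 5.72 to 20.3) against 24 of 40 GMP (60%, 43.3 to 75.1), and these intervals do not overlap. Within BMCP, 2 of 43 cells numbered 1 to 47 and 8 of 43 numbered 48 to 94 passed.

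Itgam (7:128062640-128118491) encodes alphaM (CD11b), the Mac-1 chain of mature myeloid cells. Its level was 15.6 CPM (14.8 to 16.5) in BMCP against 22.5 CPM (21.3 to 23.8) in GMP, a log2 ratio of -0.50, and 9 of 86 BMCP and 7 of 40 GMP passed 10 reads. BMCP number 28, at 849.8 CPM, gave 38.8% of the BMCP reads, and BMCP stood at 9.64 CPM without it. The level was 33.8 CPM in BMCP 1 to 47 and 4.65 CPM in BMCP 48 to 94. Its exons share 68.7% of their bases with Gm49368, a gene model on the same strand that is not among the rows used here. In each population most cells had no Itgam read, 72 of 89 BMCP and 27 of 41 GMP.

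Levels of different genes were set side by side only per length, as CPM per kilobase of merged exons (RPKM). In BMCP the summed level was 517 RPKM for Itgb7, followed by Itga4 at 102.2, Itgb2 at 62.1, Itgb1 at 40.3, Itga6 at 14.7, Itgal at 6.23, Itgam at 3.11, Itga2 at 2.01 and Itgae at 0.863 RPKM. In GMP, Itgb1 led at 40.9 RPKM, before Itgal at 26.5, Itgb2 at 21.2, Itgb7 at 17.5, Itga4 at 10.9, Itga6 at 6.84, Itgb3 at 5.63, Itgam at 4.48 and Itga2 at 0.379 RPKM. By cell medians Itgb1 stood above Itgb2 in BMCP, so these neighbours have no firm order. In GMP the median over cells placed Itga4 at 6.17 RPKM and Itga6 at 1.17 RPKM above Itgb2 at 0.126 RPKM and Itgb7 at 0, so the order of these 4 genes turns with the measure. Itgb3 and Itgam changed places in GMP with lengths of single transcripts, at 5.75 and 6.08 RPKM. Merged exons of Itga4 (13978 bases) are longer than its transcript with the longest coding part (9767 bases), on which its level was 146 RPKM in BMCP and 15.6 RPKM in GMP.

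Pairs were read in the thinned cells. Transcripts of both alpha4beta7 chains were found together in 78 of 86 BMCP (90.7%, 82.5 to 95.9) and in 5 of 40 GMP (12.5%, 4.19 to 26.8). Because Itgb7 was gated, nothing is read from that difference. Itga4 was found in 85 of all 86 BMCP, 7 of them without detected Itgb7, and in 30 of all 40 GMP. Beside these shares, 78 of 79 BMCP and 5 of 5 GMP with Itgb7 also had Itga4. The exception was BMCP number 13, which had Itgb7 at 1077 CPM, Itga4 at 5.64 CPM and the second highest Itga2, at 236 CPM. The alphaEbeta7 chains were found together in 2 BMCP and no GMP (exact upper limit 8.81%).

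The alpha4beta1 chains were found together in 29 of 86 BMCP (33.7%, 23.9 to 44.7) and 20 of 40 GMP (50%, 33.8 to 66.2), and these intervals overlap. All 29 BMCP with Itgb1 had Itga4, which was found in 85 of all 86 BMCP. In GMP, 26 cells had Itgb1, of which 20 had Itga4, which was found in 30 of all 40 GMP. The laminin receptor chains Itga6 and Itgb1 met in 8 BMCP (9.30%, 4.10 to 17.5) and 7 GMP (17.5%, 7.34 to 32.8). The collagen receptor chains Itga2 and Itgb1 met in 3 BMCP and 0 GMP, and 5 of the 8 BMCP with Itga2 lacked detected Itgb1. Itga5, the fibronectin receptor chain, met Itgb1 in 2 of 86 BMCP (2.33%, 0.283 to 8.15) and 7 of 40 GMP (17.5%, 7.34 to 32.8), and Itgav met it in 6 BMCP and 3 GMP.

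The beta2 pairs were rare in both populations. Chains of LFA-1, Itgal with Itgb2, met in 6 of 86 BMCP (6.98%, 2.60 to 14.6) and 3 of 40 GMP (7.5%, 1.57 to 20.4). The chain that was missing differed: of 28 BMCP with Itgb2, 22 lacked detected Itgal, and of 24 GMP with Itgal, 21 lacked detected Itgb2. Chains of Mac-1, Itgam with Itgb2, met in 3 BMCP and 3 GMP. At 2 thinned reads Itgb2 was found in 40 BMCP and 11 GMP and Itgal in 21 BMCP and 30 GMP, so Itgb2 was the commoner chain in BMCP and Itgal in GMP at that limit too. A chain not detected at this depth may still be transcribed.

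Itga2b and Itgb3 encode the chains of the platelet receptor alphaIIbbeta3. Itgb3 was detected in no BMCP, so none of its pairs could be found there. Itga2b was detected in 38 of 86 BMCP. In GMP, 11 of 40 cells had Itga2b, 6 had Itgb3 and 2 had both, numbers 34 and 44. Itgav met Itgb3 in 0 BMCP and in 1 GMP, number 45, with Itgav at 145 CPM. The exact upper limit of 4.20% for each beta3 pair in BMCP is that of Itgb3 itself and says nothing on pairing.

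**Figure D2:**
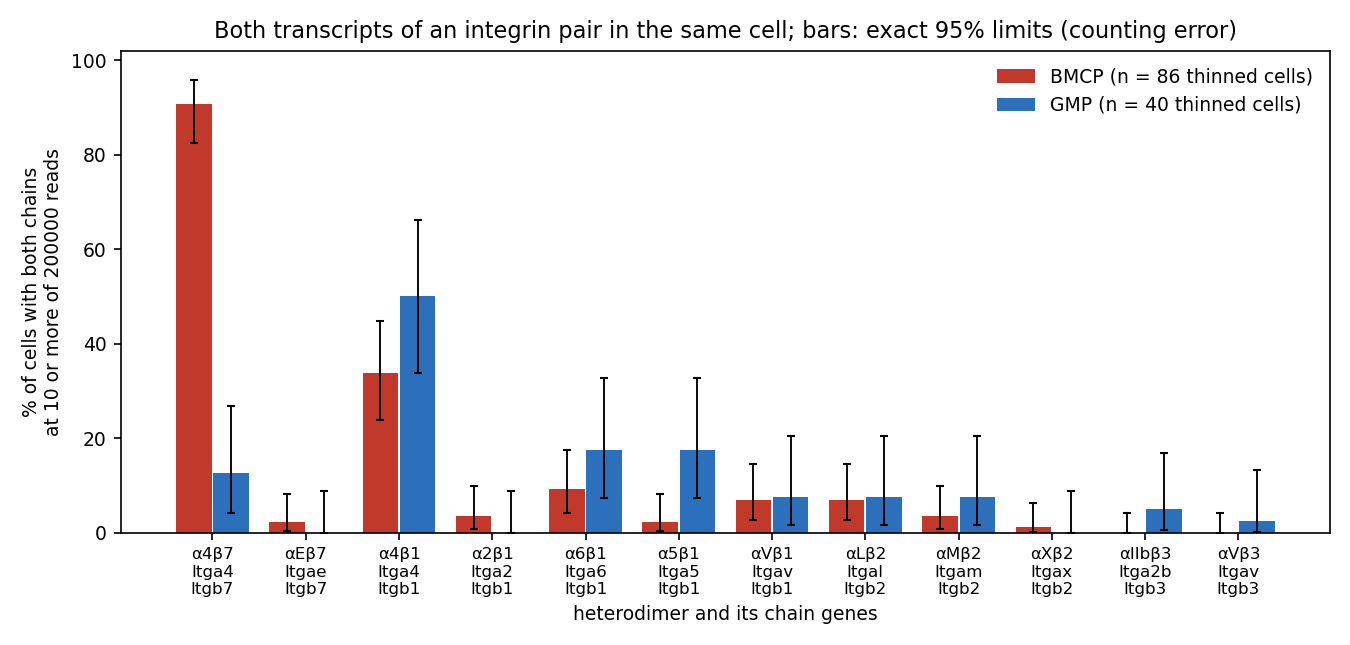
Percent of thinned cells in which both chain genes of an integrin reached 10 of 200000 reads, for BMCP (red, left, n = 86) and GMP (blue, right, n = 40), with exact 95% binomial limits as black bars. The alpha4beta7 chains stand at 90.7% of BMCP and 12.5% of GMP, a pair that contains the gated gene, and alpha4beta1 at 33.7% of BMCP and 50% of GMP, while each of the other pairs is at 17.5% or less in both populations.

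Combinations of beta chains follow the sort in part, since BMCP were gated on beta7 and GMP lay outside that gate, so nothing is read from the presence of Itgb7. Itgb7 alone was detected in 33 of 86 BMCP, Itgb7 with Itgb1 in 19, Itgb7 with Itgb2 in 17, and all of Itgb7, Itgb1 and Itgb2 in 10. Of the remaining 7 BMCP, 1 had Itgb2 alone and 6 had none of the 4 beta chains at this limit. Split by cell number, the 3-chain combination was found in 2 of 43 cells numbered 1 to 47 and in 8 of 43 numbered 48 to 94. Among GMP, 14 of 40 had Itgb1 alone, 4 had it with Itgb2, 5 had it with Itgb3, 2 with Itgb7 and 1 with Itgb2 and Itgb3. Another 3 GMP had Itgb7 alone, 2 had Itgb2 alone and 9 had none. The median cell had 3 of the 10 chains in each population, with a highest number of 7 in BMCP and 6 in GMP.

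**Figure D3:**
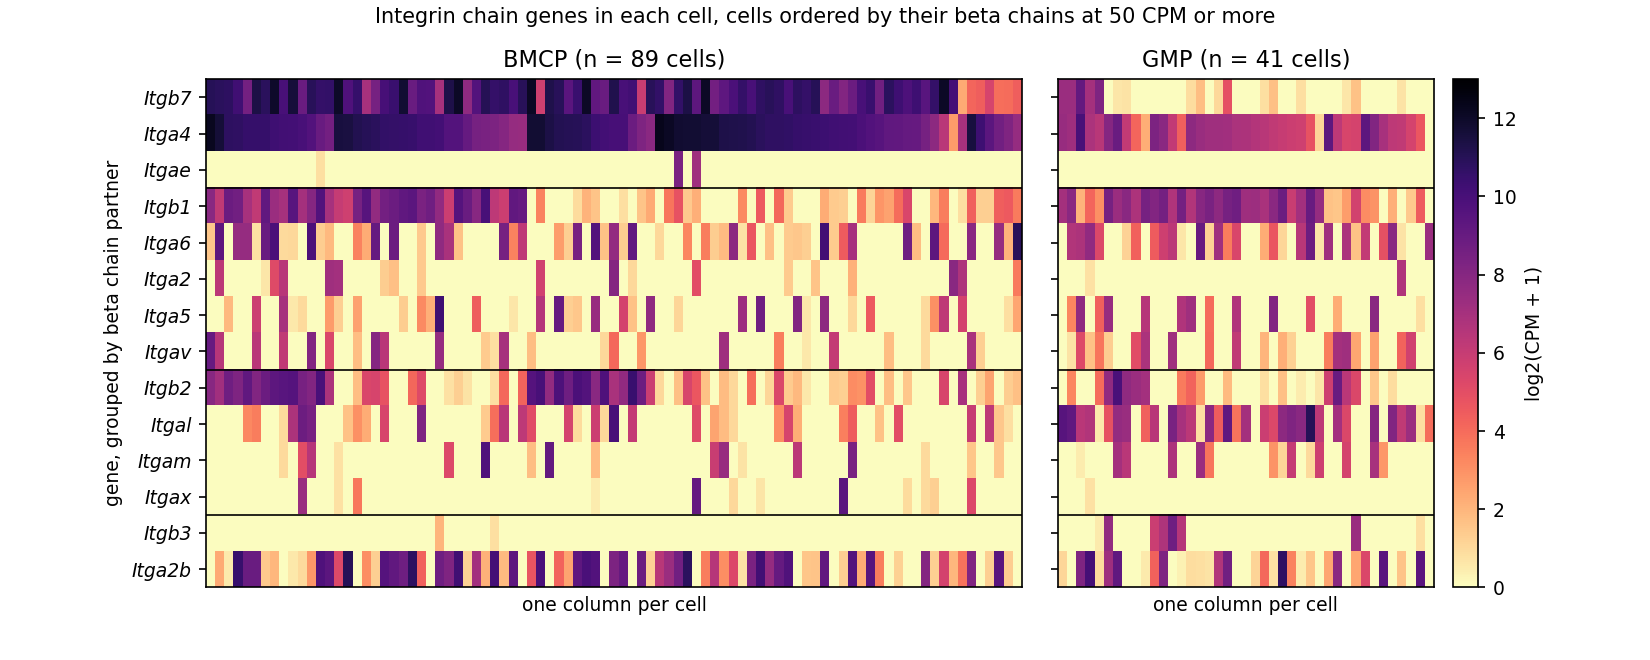
Level of 14 integrin chain genes, log2(CPM + 1), with 1 column per cell for 89 BMCP (left panel) and 41 GMP (right panel); black lines separate the genes by beta chain partner and cells are ordered by the beta chains they carry at 50 CPM or more. Itgb7 and Itga4 are dark across nearly all BMCP, Itgb1 and Itgb2 are dark in separate and partly shared blocks of BMCP, and Itgb3 is dark in 6 GMP and in no BMCP.

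The 5 GMP with Itgb7 were numbers 4, 9, 12, 30 and 36, at 163, 305, 131, 560 and 158 CPM. None of the 5 had Itgb3 above 0.454 CPM, and none of the 6 GMP with Itgb3 had Itgb7 above 2.16 CPM. Sets of 5 and 6 among 40 thinned GMP can easily share no cell, so nothing is read from this. Of the 5, number 30 had the highest Gata2, at 2144 CPM, the lowest Mpo, at 1117 CPM, and the lowest Elane, the neutrophil elastase gene, at 6.72 CPM, and was the one with Cdh1 reads, at 371 CPM. Cpa3, a mast cell carboxypeptidase gene, was at 3691 CPM in number 12, 2699 CPM in number 30 and 1774 CPM in number 4. Numbers 4 and 12 had Gata2 at 208 and 274 CPM with Mpo at 15801 and 6640 CPM. Numbers 9 and 36 had Gata2 at 55.8 and 2.01 CPM, Cpa3 at 49.03 and 160 CPM and Mpo at 22146 and 20376 CPM. Gzmb was at most 3.31 CPM in these 5 GMP, against 6516 CPM summed over BMCP.

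Correlations between chains among BMCP were weak. Spearman's rho between Itgb7 and Itga4 over 89 BMCP was 0.13, and the highest value between any of the chains compared was 0.20, for Itgb2 with Itgal. These values share each cell's library and depth and are given as a description. Among 1859 genes detected in at least 50% of BMCP, none reached a rho of 0.5 with any of the 10 genes, the highest being Srsf3 with Itgb2 at 0.44.

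Of the 16 other integrin chain genes, 8 reached 1 CPM in either population. Of these 3 were at least 2-fold higher in BMCP, 3 lower and 2 between, beside 25.8% higher and 21% lower over all genes. Itga2b, which encodes alphaIIb (CD41) of megakaryocytes and early progenitors, had 294 CPM (291 to 298) in BMCP against 141 CPM (138 to 144) in GMP. Its log2 ratio of 1.05 was close to the 2-fold limit. Per spike-in count it was at 0.0022 in BMCP against 0.00193 in GMP. Detection was 44.2% of BMCP (33.5 to 55.3) and 27.5% of GMP (14.6 to 43.9), and these intervals overlap. All 7 megakaryocyte and platelet markers, of which 2 reached 1 CPM, summed to 13.9 CPM in BMCP (0 to 556 over cells) against 3.55 CPM in GMP (0 to 49.9). The part of megakaryocyte and platelet transcripts in the Itga2b level was not tested. Itgax, the CD11c chain of dendritic cells, had 12.1 CPM in BMCP (6.57 without number 85) against 1 read in GMP. Itgb4, the epithelial partner of alpha6, had 15.5 CPM in BMCP (6.28 without number 57) against 5.96 CPM in GMP (2.58 without number 27). The chains lower in BMCP had no BMCP read at all. Itga1, a collagen receptor chain, had 16.7 CPM in GMP (8.08 without number 18), at least 469-fold higher in GMP against a floor of 3 reads. Itgb5, a partner of alphaV, had 14.6 CPM in GMP (6.98 without number 25), at least 409-fold higher in GMP. Itga10 had 2.90 CPM in GMP, of which number 40 gave 99.4%. Itga5 had 45.1 CPM in BMCP against 42.7 CPM in GMP, and Itgav had 20.4 CPM in BMCP against 24.7 CPM in GMP.

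Activation and adaptor genes switch integrins to their binding state. Of 19 such genes, 16 reached 1 CPM, with 3 at least 2-fold higher in BMCP and 1 lower, beside 25.8% higher and 21% lower over all genes, and a median log2 ratio of 0.52. The core activators were among the 12 between: Tln1, which encodes talin-1, had 736 CPM in BMCP against 499.97 CPM in GMP, and Fermt3, which encodes kindlin-3, had 551 CPM in BMCP against 437 CPM in GMP. The higher genes were the adaptors Skap1, at 53.3 CPM in BMCP against 1 read in GMP, and Fyb, at 359 CPM in BMCP against 50.7 CPM in GMP, with Cytip, a cytohesin-binding protein gene, at 192 CPM in BMCP against 35.4 CPM in GMP. SKAP1 and the FYB product bind each other in T cells. Fyb passed 10 reads in 76 of 86 BMCP against 14 of 40 GMP, and Skap1 in 18 of 86 BMCP against 0 of 40 GMP. Rasgrp2, which encodes the Rap1 exchange factor CalDAG-GEFI known for integrin activation in platelets and neutrophils, was the lower gene, at 3.15 CPM in BMCP (1.05 without number 61) against 209 CPM in GMP, in 2 of 86 BMCP and 32 of 40 GMP.

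Of 19 genes of the adhesion complex and its first kinases, 16 reached 1 CPM. Of these, 5 were at least 2-fold higher in BMCP and 3 lower, with a median of 0.40. Over all genes the shares were 25.8% higher and 21% lower. Zyx, which encodes the adhesion site protein zyxin, had 635 CPM in BMCP against 169 CPM in GMP. Lcp2, the SLP-76 adaptor gene, had 199.5 CPM in BMCP against 59.9 CPM in GMP, and Ptk2b, the kinase gene for PYK2, had 93.02 CPM in BMCP against 31.5 CPM in GMP. The kinase gene Src was also higher, and BMCP number 93 gave 99.3% of its BMCP reads. Pxn, which encodes paxillin, a binding partner of the alpha4 tail, was lower with 48.3 CPM in BMCP against 100.5 CPM in GMP, as were Vcl, the vinculin gene, with 4.202 CPM in BMCP (1.56 without number 59) against 14.3 CPM in GMP, and Fgr, of which GMP number 30 gave 99.8% of the GMP reads.

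Of 17 ligand genes, 5 reached 1 CPM, with 1 higher, 2 lower and a median log2 ratio of -0.68. Over all genes 25.8% were at least 2-fold higher in BMCP and 21% lower. Cdh1, which encodes E-cadherin, the ligand of alphaEbeta7, had 162 CPM in BMCP against 25.4 CPM in GMP (8.85 without number 30), and passed 10 reads in 37 of 86 BMCP and 3 of 40 GMP. Vcam1, the alpha4beta1 ligand gene, was lower with 0.380 CPM in BMCP (0.0479 without number 1) against 8.97 CPM in GMP (4.72 without number 27), and Jam3, a Mac-1 ligand gene, with 1.83 CPM in BMCP (0.372 without number 35) against 5.98 CPM in GMP (2.99 without number 12). Madcam1, the intestinal alpha4beta7 ligand gene, was at 0 in both. All 9 genes of membrane proteins that associate with integrins reached 1 CPM. Beside the same 25.8% and 21% over all genes, 3 were higher and 1 lower, with a median of -0.16. The higher ones were the tetraspanin genes Cd82, at 306.5 CPM in BMCP against 37.8 CPM in GMP (23.4 without number 30), Cd9, at 408 CPM in BMCP against 91.7 CPM in GMP, and Cd63, at 893 CPM in BMCP against 230 CPM in GMP. Plaur, the urokinase receptor gene and a partner of beta2 integrins, was at 0.142 CPM in BMCP (0.0478 without number 24) against 78.2 CPM in GMP.

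**Figure D4:**
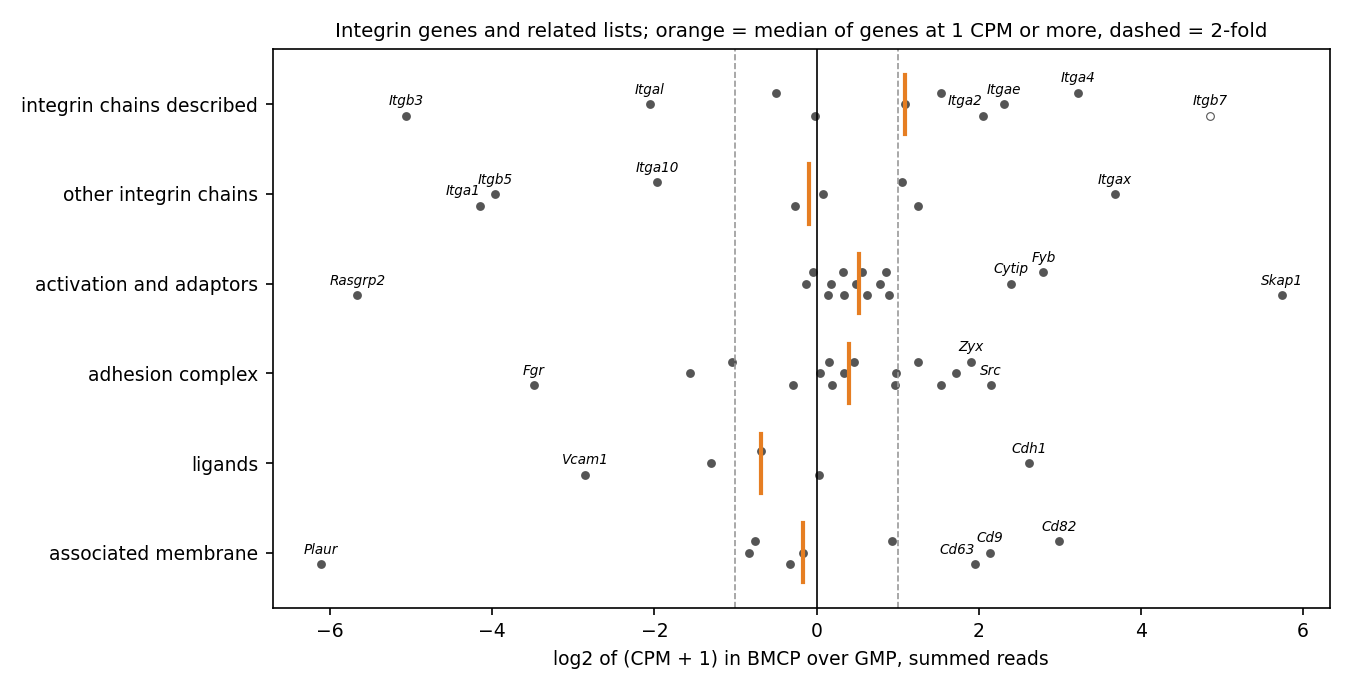
Log2 of (CPM + 1) in BMCP over GMP for genes with at least 1 CPM in either population, in 6 lists, with 1 point per gene, orange bars at list medians and dashed lines at 2-fold. The open point is Itgb7, which was gated and is left out of its list's median of 1.09; the points run from Plaur at -6.11 to Skap1 at 5.74.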

How the data were processed

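Single-cell cDNA was primed with oligo-dT, amplified over 23 PCR cycles with ERCC spike-ins, made into Nextera XT libraries and read as single-end 50-base reads, per the labels' protocols. The authors deposited raw counts per gene. The submitters' processing notes name GSNAP 2015-09-29, HTSeq 0.5.3p3 and mm10. No source used here names the annotation release. Lengths and positions came from GENCODE vM21. Reads without identifiers are not independent molecules. Of all reads of kept cells, 15.3% were in no feature, 4.57% ambiguous and 29.4% not aligned, and these stayed out of totals.

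Cells were kept with at least 50000 nuclear-encoded counts, 1000 genes, at most 10% mitochondrial and at most 50% spike-in counts, which left out 5 BMCP and 6 GMP. Median spike-in shares were 11.3% in BMCP and 5.92% in GMP. Cells were sorted singly and no doublet calling was done. Ratios used summed CPM with a pseudocount of 1. Sums have exact Poisson and shares Clopper-Pearson 95% limits. Detection was read after thinning to 200000 reads. Where a summed level moved over 1.5-fold without the cell with most reads, that value is given too for genes described with levels. Genes outside the 10 were named by size: other chains at 1 CPM, and in each list up to 3 in each direction past 2-fold at 20 CPM, plus any that small counts needed; 1 list gene past 2-fold is not reported here. The genes and lists were chosen with earlier results of these data known. For the remaining marker lists, sums in BMCP and GMP were 0.783 and 10.3 CPM for eosinophil and 59.9 and 102 CPM for B cell. Sums can hide opposite genes. Of the 4 monocyte and dendritic cell markers, 3 were at least 2-fold lower in BMCP and 1 higher, with a median log2 ratio of -6.56. Of the 2 B cell markers at 1 CPM, 1 was at least 2-fold higher in BMCP and 1 between. BMCP were also split at number 47, a technical split that the labels do not describe. Steps were tested on simulated counts. Tools were Python 3.11.15 with scipy 1.17.1, numpy 2.4.6, pandas 2.3.3 and matplotlib 3.10.9.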

Additional observations from a re-analysis of the deposited data

How the results depend on the processing

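The 5 genes at least 2-fold higher in BMCP became 3 when levels were scaled to spike-in counts, which lost Itgb2 and Itga6, brought Itgam past 2-fold lower and moved the median of all genes to -0.79, and 2 with a pseudocount of 10, which lost Itga2, Itgae and Itga6. Under the other settings the count was 4 or 5, and the count of lower genes was 2 or 3. Itga6 also fell below 2-fold without the cell filter and in BMCP 1 to 47, and Itgae in BMCP 48 to 94 and when each gene lost its highest cells. The median log2 ratio ran from 0.23 (spike-in scaling) to 1.14 (without GMP number 30, a setting added after the data were seen). No gene past 2-fold in the main setting changed direction. Itgb1 and Itgam, which lay between, did change sign. They were at -0.76 and 0.57 in BMCP 1 to 47 and at 0.29 and -2.06 in BMCP 48 to 94. At 2 thinned reads, 98.8% of BMCP had both Itga4 and Itgb7, against 90.7% at 10 reads. Of the pair shares recomputed, 110 stayed within their counting limits and 10 moved, the one above included. Of the log2 ratios of single genes recomputed, 75 stayed within their counting limits and 55 moved. Of the places in the order of levels, 38 stayed and 22 moved. The causes were not tested. No paired analysis was possible because no label ties a cell to a mouse, and no result comes from a test. Depth limits rare chains: with 86 BMCP and 40 GMP, 0 cells has exact upper limits of 4.20% and 8.81%.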
